A study of Mus musculus with 8 samples.

Results

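The clustered protocadherins are cell-surface adhesion proteins encoded in 3 neighbouring gene clusters on mouse chromosome 18, and their chromatin was examined in ATAC-Seq peak lists of sorted retinal ganglion cells (RGCs). Members were all RefSeq genes of build GRCm38 on chromosome 18 with a symbol of the Pcdha, Pcdhb or Pcdhg series, which gave 58 of 49993 genes, with 14 in the alpha, 22 in the beta and 22 in the gamma cluster. ATAC-Seq marks open chromatin by where a transposase can insert adapters. Adult C57BL/6J mice received AAV2 carrying GFP (control, 3 samples), Ezh2 (3 samples) or Ezh2-Y726D (2 samples) by intravitreal injection. Optic nerve crush (ONC) followed after 2 weeks and the sort 3 days after ONC. Each library used 50000 cells. Ezh2 is the methyltransferase of the Polycomb repressive complex that marks histone H3 for silencing, and Ezh2-Y726D is a form of it without catalytic activity. All groups, the GFP control included, therefore carried virus and had an injured nerve. AAV2 in the vitreous also reaches other retinal cells, and the sort selected live cells positive for the surface protein Thy1, which T cells carry as well. The labels do not say whether replicates came from separate animals, so p-values measure only the spread between these samples, which may be technical.

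In the alpha and gamma clusters, each variable exon has its own promoter and is spliced to constant exons shared by the whole cluster, whereas each beta gene is a single exon. A neuron switches on only some of the variable exons, which gives it a surface identity used in self-recognition of dendrites, and the gamma cluster is known for supporting survival of retinal neurons. The last members of the alpha and gamma clusters, called C-type (Pcdhac1, Pcdhac2, Pcdhgc3, Pcdhgc4 and Pcdhgc5), follow a different, less random pattern of expression. Promoter choice involves CTCF, cohesin, DNA methylation and distal enhancers downstream of the clusters.

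The lists held from 112939 to 133674 peaks with GFP, from 126271 to 135895 with Ezh2 and from 124666 to 128728 with Ezh2-Y726D, and these ranges overlapped. Sequencing depth is unknown. Overlapping peaks were joined across the lists into 189914 regions, and 78 of these lay in a protocadherin gene body or within 1 kb of it. A peak was described by its fold, the height of its summit over the local background of the same library as deposited, and by the within-list percentile of that fold, in which 100 is the strongest peak of a sample. Of 20 marker genes each, peaks lay at 19 or 20 RGC markers (74 to 95 regions per list) and at 20 rod, 20 amacrine (154 to 180 regions) and 20 Müller glia markers (60 to 69 regions) in every list. Markers of other retinal cells therefore had peaks in these lists as well. Rod marker regions with a peak numbered 72, 72 and 75 in the GFP lists, 65, 68 and 67 in the Ezh2 lists and 57 and 65 in the Ezh2-Y726D lists, and GFP did not overlap the other groups. The immune markers moved with the groups. Microglia and macrophage markers with a peak numbered 17, 15 and 19 in the GFP lists (41, 35 and 46 regions), 19, 17 and 18 in the Ezh2 lists (51, 43 and 52 regions) and 8 and 8 in the Ezh2-Y726D lists (16 and 18 regions). C1qb, Aif1, Itgam, Tyrobp, Cd68 and Ctss lacked a peak in both Ezh2-Y726D lists although each of the other 6 lists had one. T cell markers with a peak numbered 20 in each GFP list (80, 89 and 108 regions) and each Ezh2 list (108, 114 and 121 regions). They numbered 16 and 16 in the Ezh2-Y726D lists (52 and 53 regions), where Cd3g, Cd8a, Cd8b1 and Lat had none. These differences stand beside all 3 comparisons below, and their part in them was not tested.

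The 58 genes form one array of 911.6 kb, with the alpha cluster from 36930285 to 37188897, the beta cluster from 37264998 to 37521419 and the gamma cluster from 37661775 to 37841873 (GRCm38). Gaps of 76101 bp and 140356 bp separate the clusters. Neighbouring starts are close together, with a median spacing of 7.35 kb in alpha, 7.84 kb in beta and 5.30 kb in gamma outside the C-type genes. Because the alpha genes end at the same constant exons, as do the gamma genes, a gene body there contains its downstream neighbours. Each region was therefore given to the segment of 1 gene, which runs from 1 kb before its start to 1 kb before the next start. The table of genes carried no strand or exons, so the lower coordinate of a gene was taken as its start. The 3 gene models Gm37013, Gm38666 and Gm38667 span most of the array and share these regions.

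Open chromatin in the array sat mainly at gene starts. Of the 78 regions, 55 lay within 1 kb of a member's start, and their summits fell at a median of 34.5 bp downstream of it (range -184 to 481 bp), with 45 of 55 within 300 bp. The beta cluster had all of its 22 regions at starts, against 13 of 22 in alpha and 20 of 34 in gamma. The other 23 regions lay between Pcdha12 and Pcdhac1 (1 region), downstream of the start of Pcdhac2 (8 regions), and downstream of Pcdhga12 (7 regions), Pcdhgc3 (1 region) and Pcdhgc5 (6 regions), that is towards the shared constant exons. A peak was present in all 8 lists in 34 regions (10 alpha, 7 beta and 17 gamma) and in 1 list only in 8 regions (2 alpha, 5 beta and 1 gamma). The 34 made up 43.6% of the protocadherin regions, and 36.6% of all 189914 regions had a peak in all 8 lists.

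A start peak was found in all 8 lists for 24 genes, in 1 to 7 lists for 28 and in no list for 6. The 6 were Pcdha1 and Pcdha3 in alpha, Pcdhb5 and Pcdhb22 in beta, and Pcdhgb2 and Pcdhgc5 in gamma. Pcdhgc5 had peaks elsewhere in its segment, so 5 genes had no peak in their own segment in any sample. Near-identical variable exons can lose reads to a mapping quality filter such as the one named in the peak labels, and what it did at these 6 starts was not tested.

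Along the alpha cluster, start peaks were sparse at its upstream end and complete at its downstream end. Pcdha1 and Pcdha3 had none, Pcdha2 and Pcdha5 had one in 4 lists each, Pcdha6 in 2, Pcdha8 in 1, Pcdha9 in 7 and Pcdha10 in 4. Pcdha4, Pcdha7, Pcdha11, Pcdha12, Pcdhac1 and Pcdhac2 had one in all 8. In beta the downstream end was the sparse one, with peaks in 8, 8, 7 and 7 lists at Pcdhb1 to Pcdhb4 and in 3, 1, 4, 2, 1 and 0 lists at Pcdhb17 to Pcdhb22. Between them, Pcdhb9, Pcdhb11, Pcdhb12, Pcdhb14 and Pcdhb16 had a start peak in all 8 lists, and they alternated with genes that had few, such as Pcdhb7 and Pcdhb13 with 1 list each and Pcdhb10 with 3. Pcdhb6 had one in 6 lists, and Pcdhb8 and Pcdhb15 in 5 each.

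The gamma cluster was the most complete, with a start peak in at least 5 lists at 17 of 22 genes, against 7 of 14 in alpha and 12 of 22 in beta. From Pcdhgb7 to Pcdhgc4, every gene had it in every list. Among the A-type genes, Pcdhga2, Pcdhga3, Pcdhga4, Pcdhga7, Pcdhga11 and Pcdhga12 had a start peak in all 8 lists, Pcdhga1 and Pcdhga6 in 7, Pcdhga10 in 6, Pcdhga8 and Pcdhga9 in 5 and Pcdhga5 in 4. Among the B-type genes, Pcdhgb6, Pcdhgb7 and Pcdhgb8 had one in all 8, Pcdhgb5 in 6, Pcdhgb1 and Pcdhgb4 in 2 each and Pcdhgb2 in none.

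**Figure D1:**
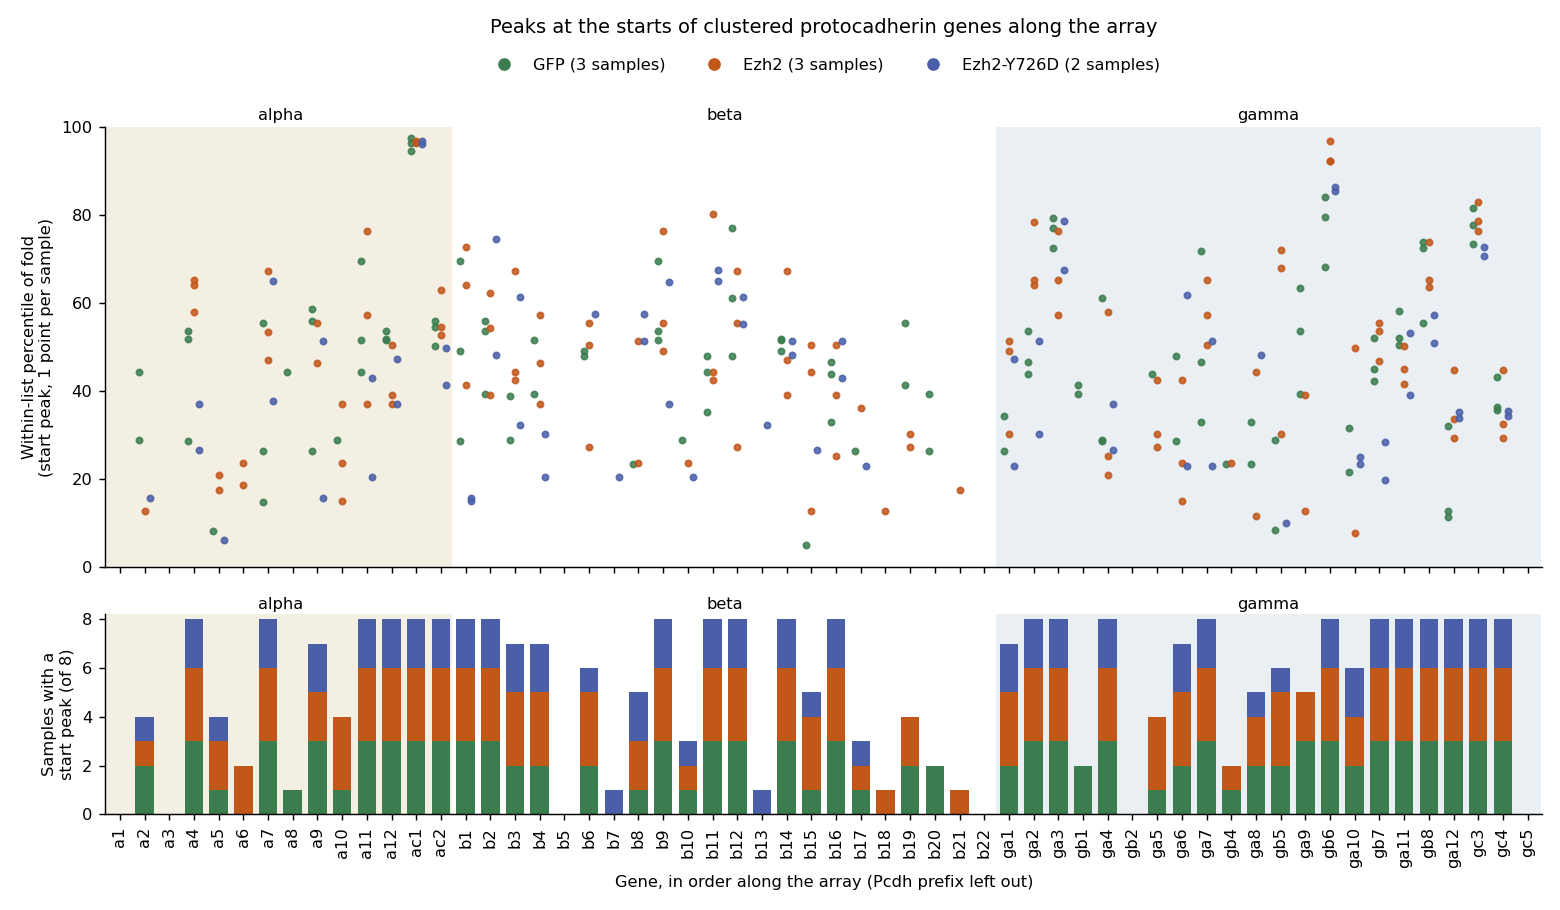
Start peaks of the 58 genes in their order along the array. Upper panel, within-list percentile of fold (0 to 100) of the strongest peak within 1 kb of each start, 1 point per sample coloured by group. Lower panel, number of samples of each group with such a peak, of 8 in all. Pcdhac1 stands at 94.6 to 97.5 in every sample, and 6 genes have no point.

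Compared with genes elsewhere, protocadherin starts had a peak in a share of genes on either side of that elsewhere, but the peaks ranked far lower. A start peak was present at 35, 32 and 44 of 58 genes in the GFP lists, at 37, 40 and 44 in the Ezh2 lists and at 35 and 37 in the Ezh2-Y726D lists, that is 55.2% to 75.9% per sample. Among 17491 other protein-coding genes with a known start the share was 65.0% to 67.7%. These genes include none of chromosome 18, and their starts take strand into account, whereas member starts are lower coordinates. The median percentile of the protocadherin start peaks lay between 39.1 and 50.6 per sample, and that of the other genes between 87.0 and 88.7. The samples did not overlap in this value. Among regions with a peak in all 8 lists, 4 of the 34 protocadherin regions were above the median of the 69493 such regions in the genome (67.3). Each library pools many cells, so fewer cells with an open promoter and a less open promoter in every cell cannot be told apart. What the mapping quality filter did to the ranks of these start peaks was not tested.

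By fold, the strongest region was the start of Pcdhac1, a C-type alpha gene, from 37089423 to 37090875. Its percentile was 94.6, 96.4 and 97.5 with GFP, 96.3, 96.8 and 96.6 with Ezh2 and 96.8 and 96.1 with Ezh2-Y726D. Its fold was 10.4, 12.2 and 12 with GFP, 11.6, 11.6 and 10.9 with Ezh2 and 12.5 and 11.7 with Ezh2-Y726D. The samples lay within a few percentiles of each other and the groups overlapped. The second was the start of Pcdhgb6, a B-type gamma gene, with a mean percentile of 85.6, and the third the start of the C-type gene Pcdhgc3, from 37805924 to 37807910. The latter had a percentile of 77.7, 81.6 and 73.4 with GFP, 82.9, 76.4 and 78.7 with Ezh2 and 72.7 and 70.7 with Ezh2-Y726D. In percentile both Ezh2-Y726D replicates lay just below all others at Pcdhgc3. In the rank score used for testing below they overlapped the GFP replicates, with a difference of -0.28 ± 0.20 (SE) that did not pass (limma adjusted p = 0.433). Only Pcdhac1 and Pcdhgb6 of the 78 regions had a mean percentile of fold over 80.

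The other C-type genes showed wide regions of modest fold. The start region of Pcdhac2 spanned 2021 bp from 37143147 to 37145167, with a percentile of 56, 50.3 and 54.6 with GFP, 54.6, 52.9 and 63.1 with Ezh2 and 41.5 and 49.7 with Ezh2-Y726D. That of Pcdhgc4 spanned 2144 bp from 37814306 to 37816449, with 35.8, 43.2 and 36.3 with GFP, 29.4, 44.9 and 32.6 with Ezh2 and 34.4 and 35.6 with Ezh2-Y726D. At Pcdhgc4 the 3 groups overlapped, and at Pcdhac2 both Ezh2-Y726D samples lay below every GFP and Ezh2 sample. The difference of Ezh2-Y726D to GFP at Pcdhac2 was -0.25 ± 0.18 (SE) and did not pass (limma adjusted p = 0.425). Pcdhgc5 had no peak within 1 kb of its start, and its 6 regions began from 4454 to 21755 bp downstream. The widest of them, from 37841301 to 37843426 at the common end of the gamma genes and within 1 kb of the gene Diaph1, had a percentile of 36.9, 19 and 46.6 with GFP, 24.8, 28.9 and 33.1 with Ezh2 and 32.1 and 41 with Ezh2-Y726D. Of the 78 regions, 4 were wider than 1900 bp (the start regions of Pcdhac2, Pcdhgc3 and Pcdhgc4, and this last one), a share of 5.13% against 1.42% of all regions.

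The ranking of these regions depended on the deposited column. By −log10 p, which also grows with the number of reads, the mean percentile was 85.3 at the start of Pcdhac2, 85.4 at Pcdhgc4, 94.1 at Pcdhgc3 and 70.9 at the end of the gamma genes, against 52.8, 36.5, 76.8 and 32.8 by fold. By that measure Pcdhgc3 came first and Pcdhac1 second, at 93.3. Regions away from starts had a median of 17.1 by fold and 24.6 by −log10 p, and regions at starts 40.4 and 32.0. In alpha, regions away from starts were at 21.1 by fold and 43.8 by −log10 p. Folds at starts also came in steps. Between 18 and 24 different folds described the 32 to 44 start peaks of a sample, so many members share a percentile.

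**Figure D2:**
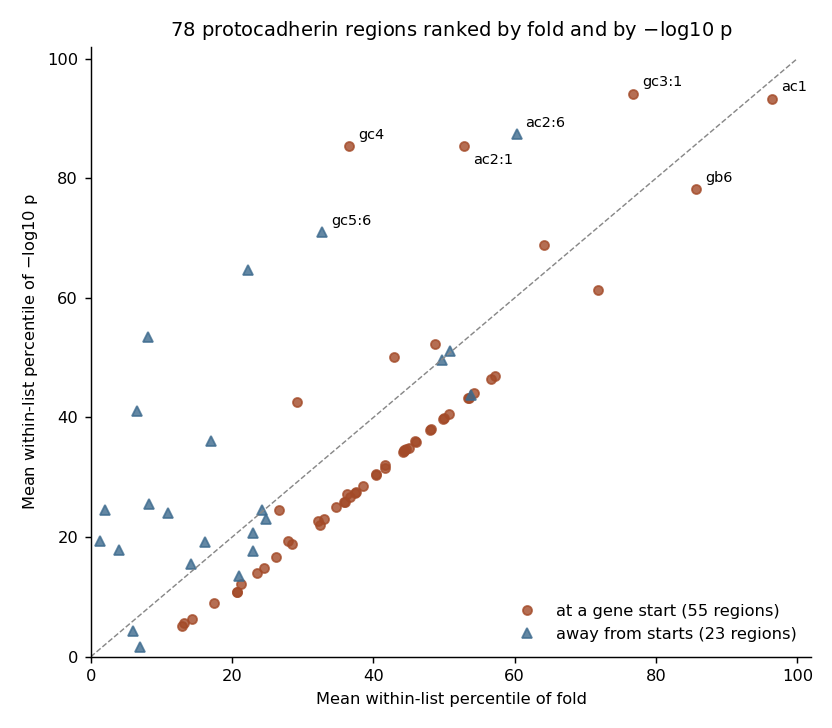
Mean within-list percentile of fold (x axis) and of −log10 p (y axis) for the 78 protocadherin regions, each averaged over the samples that have the peak. Circles are the 55 regions at a gene start and triangles the 23 regions away from starts. The dashed line marks equal percentiles. Pcdhgc4 and the start of Pcdhac2 (ac2:1) stand far above the line, at 85.4 and 85.3 by −log10 p.

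The number of open protocadherin regions per sample overlapped between the groups. A peak was present in 54, 47 and 63 regions with GFP, 54, 59 and 63 with Ezh2 and 51 and 57 with Ezh2-Y726D, that is 54.7 ± 8.02 (SD, n = 3), 58.7 ± 4.51 (n = 3) and 54 ± 4.24 (n = 2). The fewest were found in the shortest list, GFP replicate 2 (112939 peaks), and the most in the 2 longest, Ezh2 replicate 3 (135895 peaks) and GFP replicate 3 (133674 peaks), and the part of list length was not tested. By cluster, alpha had 15.7 ± 1.53, 17 ± 2.0 and 15 ± 0 regions with a peak in GFP, Ezh2 and Ezh2-Y726D, beta 11.7 ± 2.08, 13.7 ± 2.08 and 14 ± 2.83, and gamma 27.3 ± 4.51, 28 ± 1.0 and 25 ± 1.41. In each cluster the ranges of the GFP replicates overlapped those of both other groups. In gamma the Ezh2 samples (27, 29 and 28) did not overlap the Ezh2-Y726D samples (24 and 26).

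The median percentile of the protocadherin peaks was 37.9, 43.2 and 39.4 with GFP, 40.4, 42.5 and 41.5 with Ezh2 and 34.4 and 35.4 with Ezh2-Y726D. Both Ezh2-Y726D samples thus lay below the 6 others. By cluster, the Ezh2-Y726D samples were below the others in alpha (37.0 and 37.8, against 39.5 to 51.9) and in gamma (31.2 and 31.9, against 32.9 to 42.5), whereas in beta they overlapped them (48.3 and 35.1, against 41.8 to 50.6). With −log10 q of at least 5, which removes weak peaks, the difference of group means between Ezh2-Y726D and GFP shrank from -5.28 to -2.11 percentiles, and with percentiles of −log10 p to -1.19.

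**Figure D3:**
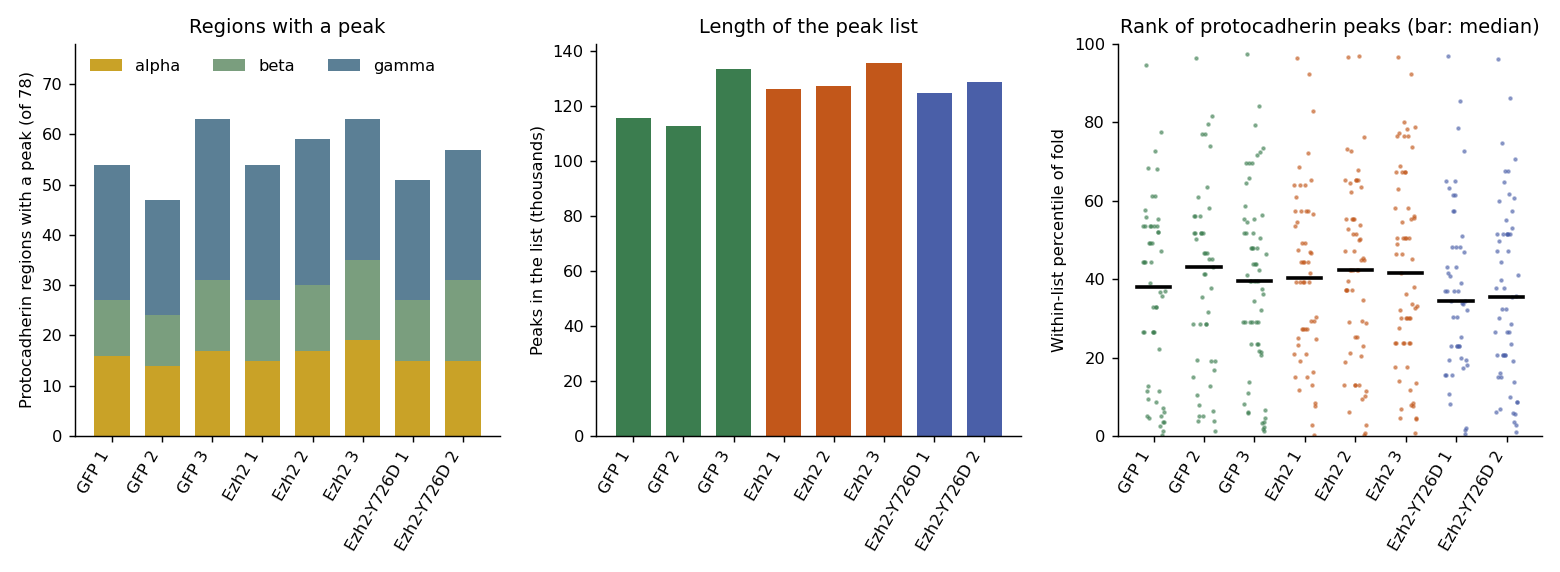
Left, number of protocadherin regions with a peak in each sample, stacked by cluster, of 78. Middle, number of peaks in each list, divided by 1000. Right, within-list percentile of fold of every protocadherin peak (points) with the median of the sample (bar). The 2 Ezh2-Y726D samples have the lowest medians, 34.4 and 35.4.

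For graded comparisons, regions with a peak in all 8 lists were ranked by fold in each sample, each rank was converted to a normal score, and limma compared the groups over all 69493 such regions. Differences below are in units of that score. Of the 78 protocadherin regions, 34 could be tested, and 44 with a peak in fewer lists could not. The comparisons with GFP share the same control samples.

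Ezh2 against GFP asks what active Ezh2 adds. Of the 34 regions, 2 were higher with Ezh2 (background 1.59% of all regions) and 0 were lower (background 2.84%). At an unadjusted p under 0.05, 7 were higher and 0 lower, that is 20.6% and 0%, beside 9.93% and 10.1% of all regions. Rod markers moved in the same comparison, with 8 of 44 tested regions (18.2%) called higher and 1 lower. T cell markers had 1 of 33 called higher and 3 (9.09%) lower. Amacrine markers had 3 of 98 (3.06%) called higher and 3 lower. Müller glia (45 regions) and RGC markers (49 regions) each had 0 higher and 1 lower, and microglia and macrophage markers (10 regions) had 0 and 0. The part of these lists was not tested. The median difference was 0.06 over the 34 regions, with 23 positive, and 0.01 over all regions. By cluster it was 0.06 in alpha (10 regions), 0.05 in beta (7 regions) and 0.05 in gamma (17 regions). Groups did not overlap in 6 of the 34 regions (background 24.0%).

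The first was the start of Pcdhgb6, from 37741834 to 37742621. Its percentile was 68.2, 79.7 and 84.1 with GFP, 92.3, 96.9 and 92.2 with Ezh2 and 85.5 and 86.3 with Ezh2-Y726D, with folds of 5.92, 7.64 and 7.84 with GFP, 10.0, 11.7 and 9.23 with Ezh2 and 8.81 and 8.73 with Ezh2-Y726D. All 3 Ezh2 samples were above all GFP samples, and both Ezh2-Y726D samples fell between them and overlapped neither. The difference to GFP was 0.92 ± 0.21 (SE) for Ezh2 (limma adjusted p = 0.0368) and 0.33 ± 0.23 (SE) for Ezh2-Y726D (adjusted p = 0.424). The call for Ezh2 held in 3 of 15 alternatives (adjusted p from 0.0275 to 0.0982), and leaving out any 1 GFP or Ezh2 library ended it. Leaving out either Ezh2-Y726D library gives the same test as only the 2 groups compared, so these alternatives are not separate checks.

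The second lay from 37172202 to 37172669, 28524 bp downstream of the start of Pcdhac2 and within the bodies of all alpha genes. Its percentile was 4.97, 10.6 and 6.07 with GFP, 23.3, 29 and 27.4 with Ezh2 and 19.3 and 16.1 with Ezh2-Y726D. It was a weak peak in every sample, and the Ezh2 samples were above all others. The difference was 0.71 ± 0.17 (SE) (limma adjusted p = 0.0451). It held in 2 of 15 alternatives (adjusted p from 0.0463 to 0.118), and of the GFP and Ezh2 libraries only GFP replicate 2 could be left out without ending the call. No protocadherin region was gained, that is present in every Ezh2 and no GFP sample, and none was lost (background 2.72% and 1.68% of all regions).

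Ezh2-Y726D against GFP asks what the inactive form does. Of the 34 regions, 1 was higher (background 3.55%) and 1 lower (background 4.65%), and both lay next to each other in the downstream part of the Pcdhac2 segment. At an unadjusted p under 0.05, 3 were higher and 4 lower, that is 8.82% and 11.8%, close to the 12% and 12.4% of all regions. Rod markers had 4 of 44 tested regions (9.09%) called higher and 3 (6.82%) lower. T cell markers had 3 of 33 (9.09%) higher and 0 lower, and microglia and macrophage markers 1 and 2 of 10. Amacrine markers (98 regions) had 0 higher and 3 lower, and Müller glia (45 regions) and RGC markers (49 regions) 0 and 1 each. The part of these lists was not tested. The median difference was -0.17 over the 34 regions, with 22 negative, and -0.01 over all regions. It was -0.14 in alpha, -0.06 in beta and -0.21 in gamma. Groups did not overlap in 16 of the 34 regions, against a background of 41.5%.

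The region that fell lay from 37178213 to 37179082, 34535 bp downstream of the Pcdhac2 start. Its percentile was 68.3, 60.9 and 65.8 with GFP, 68.7, 64.6 and 68.8 with Ezh2 and 40.7 and 44.3 with Ezh2-Y726D. GFP and Ezh2 samples shared 1 narrow range and both Ezh2-Y726D samples were well below it. The difference to GFP was -0.70 ± 0.17 (SE) for Ezh2-Y726D (limma adjusted p = 0.0341) and 0.06 ± 0.15 (SE) for Ezh2 (adjusted p = 0.893). The call held in 7 of 15 alternatives (adjusted p from 0.0188 to 0.164) and was lost without any 1 GFP or any 1 Ezh2-Y726D replicate. By −log10 p this was the highest-ranked region away from starts, with a mean percentile of 87.4.

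The region that rose lay from 37180012 to 37180856. Its percentile was 9.49, 8.0 and 13.9 with GFP, 19.1, 21.2 and 32.1 with Ezh2 and 34.4 and 39.7 with Ezh2-Y726D. The 3 groups did not overlap, with GFP lowest and Ezh2-Y726D highest. The difference to GFP was 0.85 ± 0.17 (SE) for Ezh2-Y726D (limma adjusted p = 0.0167) and 0.46 ± 0.15 (SE) for Ezh2 (adjusted p = 0.123). The call held in 13 of 15 alternatives (adjusted p from 0.0149 to 0.0932), being lost without either Ezh2-Y726D replicate.

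By presence, 1 region was gained and 1 lost with Ezh2-Y726D (background 4.77% and 4.72%). The gained region, from 37354997 to 37355225 at the start of the beta gene Pcdhb8, had a percentile of 57.5 and 51.4 in the Ezh2-Y726D replicates and 23.8 in Ezh2 replicate 3, and no peak in the 5 other samples. A second Pcdhb8 region just downstream had a peak in GFP replicate 3, Ezh2 replicate 2 and Ezh2-Y726D replicate 2, so a peak at this start was found in all 3 groups. The lost region, from 37736741 to 37737428 at the start of Pcdhga9, had a percentile of 53.6, 63.5 and 39.4 in the GFP replicates and 39.2 and 12.9 in Ezh2 replicates 1 and 2, and no peak in Ezh2 replicate 3 or either Ezh2-Y726D sample.

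Ezh2 against Ezh2-Y726D compares the active with the inactive form. A difference can come from either form, so it need not depend on catalytic activity. Of the 34 regions, 5 were higher with Ezh2 (background 7.0%) and 0 were lower (background 6.96%). At an unadjusted p under 0.05, 6 were higher and 1 lower, that is 17.6% and 2.94%, beside 14.9% and 14.5% of all regions. Rod markers had 5 of 44 tested regions (11.4%) called higher and 0 lower in the same comparison. Müller glia markers had 8 of 45 (17.8%) higher and 3 (6.67%) lower, and amacrine markers 12 of 98 (12.2%) and 4 (4.08%). RGC markers had 1 of 49 (2.04%) higher and 2 (4.08%) lower. T cell markers had 1 of 33 called higher and 9 (27.3%) lower, and microglia and macrophage markers 2 and 2 of 10. Immune regions without a peak in an Ezh2-Y726D list were not tested. The part of these lists was not tested. The median difference was 0.06 over the 34 regions, with 20 positive, and 0.02 over all regions, and it was 0.19 in alpha, -0.21 in beta and 0.06 in gamma. Groups did not overlap in 13 of the 34 regions (background 47.5%).

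One was the Pcdhac2 region that also fell with Ezh2-Y726D against GFP, with a difference of 0.76 ± 0.17 (SE) (limma adjusted p = 0.0175). It held in 12 of 15 alternatives (adjusted p from 0.0108 to 0.0983). The other 4 were gene starts. At Pcdhgb7, a B-type gamma gene, from 37751476 to 37752126, the percentile was 52, 45.1 and 42.3 with GFP, 46.9, 53.8 and 55.4 with Ezh2 and 19.8 and 28.5 with Ezh2-Y726D. The difference was 0.76 ± 0.19 (SE) (adjusted p = 0.0273), and that of Ezh2-Y726D to GFP was -0.63 ± 0.19 (SE) (adjusted p = 0.0729). The Ezh2-Y726D samples were below all others, whereas GFP and Ezh2 overlapped.

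At Pcdha4, the most upstream alpha gene with a start peak in all lists, from 36952499 to 36953529, the percentile was 53.6, 28.7 and 51.9 with GFP, 64.1, 65.2 and 58 with Ezh2 and 37 and 26.5 with Ezh2-Y726D. The difference was 0.88 ± 0.23 (SE) (limma adjusted p = 0.0315). The Ezh2 samples were above all others, and GFP replicate 2 lay among the Ezh2-Y726D samples. At Pcdhb1, the first beta gene, from 37264698 to 37265407, the percentile was 49.1, 28.7 and 69.5 with GFP, 64.1, 72.8 and 41.5 with Ezh2 and 15.7 and 15.1 with Ezh2-Y726D. This was the largest difference of the 34, 1.27 ± 0.34 (SE) (limma adjusted p = 0.0359), and both GFP and Ezh2 samples spread widely above the Ezh2-Y726D samples.

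At Pcdhga2, an A-type gamma gene, from 37668702 to 37669487, the percentile was 53.6, 46.7 and 43.9 with GFP, 64.1, 65.2 and 78.4 with Ezh2 and 30.3 and 51.4 with Ezh2-Y726D. All Ezh2 samples were above all others, and the Ezh2-Y726D samples overlapped the GFP samples. The difference was 0.88 ± 0.24 (SE) (limma adjusted p = 0.0359), beside 0.66 ± 0.21 (SE) for Ezh2 against GFP (adjusted p = 0.111). Pcdha4, Pcdhb1 and Pcdhga2 shared a fold of 5.86 in Ezh2 replicate 1, and Pcdha4 and Pcdhga2 shared 5.77 in Ezh2 replicate 2. The steps of fold described above thus enter these calls, and their part was not tested. The 4 calls at starts held in 9 of 15 alternatives (adjusted p from 0.0144 to 0.158) at Pcdhgb7, in 10 of 15 alternatives (adjusted p from 0.0187 to 0.194) at Pcdha4, in 8 of 14 alternatives (adjusted p from 0.0134 to 0.158) at Pcdhb1 and in 7 of 15 alternatives (adjusted p from 0.0248 to 0.249) at Pcdhga2. None of the 5 was called without Ezh2 replicate 1 or either Ezh2-Y726D replicate, 1 without Ezh2 replicate 2 and 3 without Ezh2 replicate 3.

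By presence, 2 regions were gained in Ezh2 against Ezh2-Y726D and 0 were lost (background 8.96% and 6.14%). The start of Pcdha10, from 37005085 to 37005524, had a percentile of 15.1, 37.2 and 23.8 in the Ezh2 replicates and 29 in GFP replicate 3. The start of Pcdhga5, from 37694260 to 37694869, had 27.3, 42.5 and 30.2 in the Ezh2 replicates and 43.9 in GFP replicate 3. Both were absent from GFP replicates 1 and 2 and from both Ezh2-Y726D samples, and all of these peaks ranked below the middle of their lists. In every comparison the share of protocadherin regions gained or lost was below the background.

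**Figure D4:**
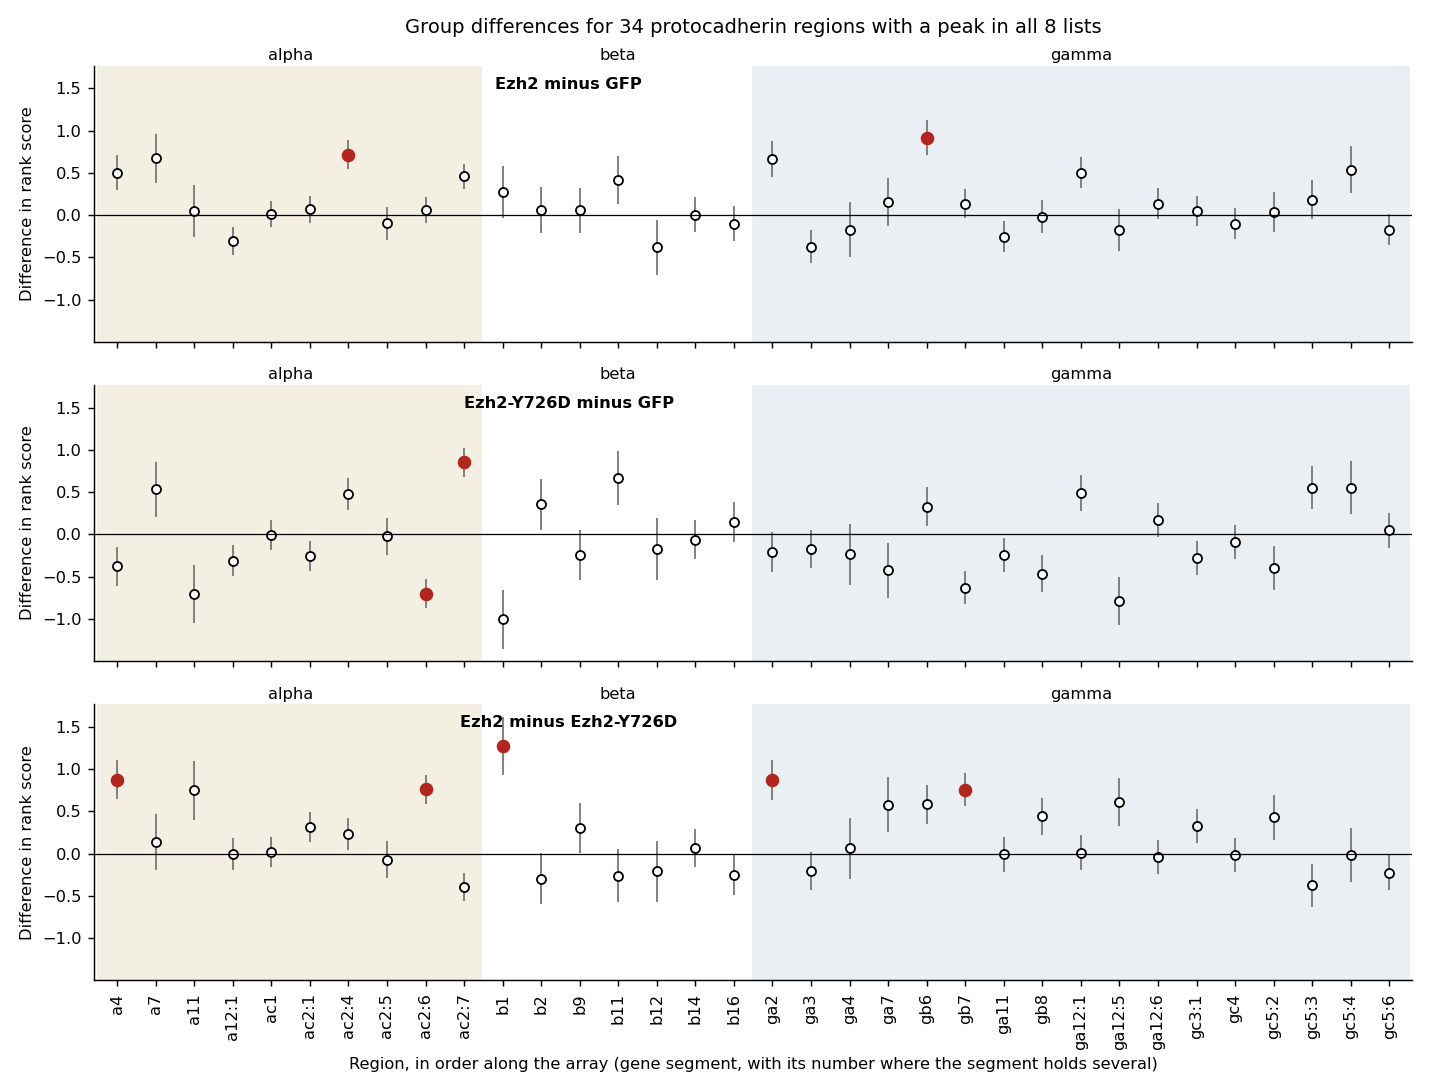
Difference in rank score between groups for the 34 protocadherin regions with a peak in all 8 lists, in order along the array, with the standard error of limma as bars. Filled red points are regions called at an adjusted p under 0.05 over all 69493 regions. There are 2 in Ezh2 minus GFP, 2 of opposite sign in Ezh2-Y726D minus GFP and 5, all positive, in Ezh2 minus Ezh2-Y726D.

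**Figure D5:**
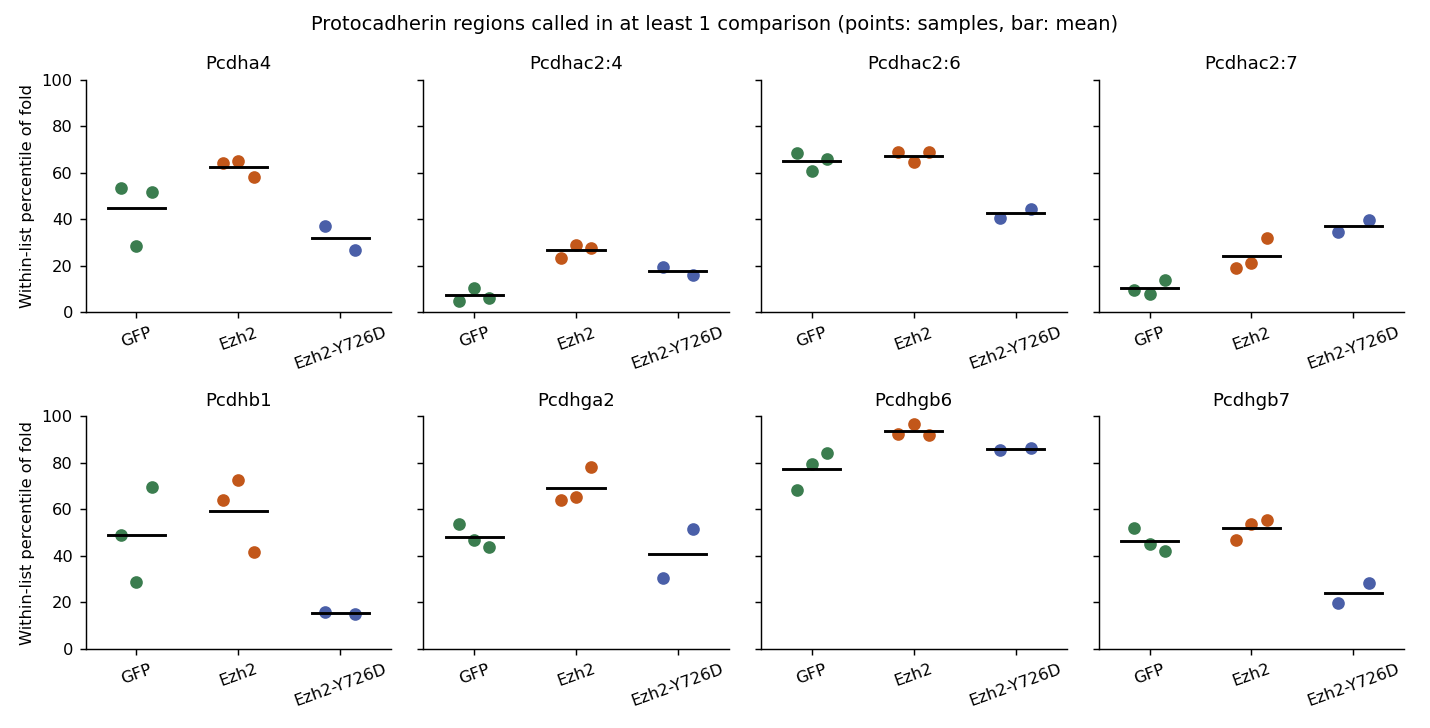
Within-list percentile of fold in every sample for the 8 protocadherin regions called in at least 1 comparison. Points are samples and bars group means, and the number after a colon gives the order of the region within its gene segment. At Pcdhac2:6, Pcdhb1 and Pcdhgb7 the Ezh2-Y726D samples lie below all others, and at Pcdhac2:7 they lie above them.

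The 3 regions in the gaps between the clusters, outside the 1 kb limit, had a higher mean percentile than any of the 78 protocadherin regions. A region from 37217024 to 37218523, 28127 bp beyond the end of the alpha genes, had a percentile of 97.1, 97.8 and 96.9 with GFP, 96.8, 98.2 and 97.7 with Ezh2 and 98 and 94.8 with Ezh2-Y726D. An enhancer of the alpha cluster is known to lie downstream of its constant exons, and whether this region is that element was not tested. In the gap before gamma, the region at Taf7, which encodes a subunit of the general transcription factor TFIID, had a percentile of 99.9, 99.6 and 99.6 with GFP, 99.6, 99.9 and 99.8 with Ezh2 and 99.5 and 99.4 with Ezh2-Y726D. A further region from 37655229 to 37656284, 5491 bp before Pcdhga1, had 98.2, 98.4 and 98.9 with GFP, 97.8, 96.6 and 99.5 with Ezh2 and 96 and 98.4 with Ezh2-Y726D. None of the 3 passed the test in any comparison (limma adjusted p from 0.306 to 0.941). Slc25a2, also in the gap, had no peak in any list.

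Genes known to control the clusters had peaks in every sample. All 21 architecture and silencing factors examined (such as Ctcf, Rad21, Smchd1, Setdb1 and the Dnmt genes) had a peak within 1 kb of the gene body in all lists, and 67 of their 176 regions could be tested. In Ezh2 against GFP, 0 regions were called higher and 1 lower. These counts were 0 and 4 in Ezh2-Y726D against GFP, and 6 and 3 in Ezh2 against Ezh2-Y726D. As shares they were 0% and 1.49%, 0% and 5.97%, and 8.96% and 4.48%, and over all regions 1.59% and 2.84%, 3.55% and 4.65%, and 7.0% and 6.96%, so the higher share in the last comparison and the lower share in the one before it were near the background. At an unadjusted p under 0.05 the counts of the 67 were 6 and 3, 4 and 11, and 13 and 4. All regions had 9.93% and 10.1%, 12% and 12.4%, and 14.9% and 14.5%. The median differences were -0.02, -0.15 and 0.14. The lowest adjusted p was at Tet3, which oxidises methylated cytosine, where a region on chromosome 6 from 83381449 to 83382254 differed by 1.39 ± 0.19 (SE) in Ezh2 against Ezh2-Y726D (limma adjusted p = 0.00217) and by -1.28 ± 0.19 in Ezh2-Y726D against GFP (adjusted p = 0.00586). Another Tet3 region from 83409994 to 83410776 was lower with Ezh2 than in either other group, by -0.98 ± 0.18 against GFP (adjusted p = 0.0178) and -1.13 ± 0.20 against Ezh2-Y726D (adjusted p = 0.00581), so 2 regions of 1 gene moved in opposite directions. Tet1, of the same enzyme family, differed by 1.07 ± 0.18 in Ezh2 against Ezh2-Y726D (adjusted p = 0.00448) and by -0.91 ± 0.18 in Ezh2-Y726D against GFP (adjusted p = 0.0153).

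Stag1, a cohesin subunit, had 1 region higher (1.03 ± 0.20, limma adjusted p = 0.00822) and 1 lower (-0.76 ± 0.20, adjusted p = 0.0303) in Ezh2 against Ezh2-Y726D. Atf7ip, a partner of the methyltransferase Setdb1, was higher in the same comparison by 0.99 ± 0.20 (adjusted p = 0.00972), and Pds5b, a cohesin regulator, by 0.89 ± 0.21 (adjusted p = 0.0206). Of its fellow cohesin regulators, Nipbl was higher there by 0.70 ± 0.21 (adjusted p = 0.0486) and Pds5a lower by -0.81 ± 0.24 (adjusted p = 0.0489). Dnmt3a, a DNA methyltransferase, differed by -0.83 ± 0.22 in Ezh2-Y726D against GFP (adjusted p = 0.0480).

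The 16 intracellular partners of protocadherin signalling likewise had peaks in all lists, with 74 regions tested. In Ezh2 against GFP, 0 regions were called higher and 2 lower. These counts were 1 and 6 in Ezh2-Y726D against GFP, and 8 and 2 in Ezh2 against Ezh2-Y726D, with median differences of -0.07, -0.12 and 0.03. As shares they were 0% and 2.70%, 1.35% and 8.11%, and 10.8% and 2.70%, against the same backgrounds. At an unadjusted p under 0.05 the counts were 6 and 6, 4 and 15, and 15 and 11, where all regions had 9.93% and 10.1%, 12% and 12.4%, and 14.9% and 14.5%. Axin1, a scaffold of Wnt signalling, had the largest difference, 2.63 ± 0.25 in Ezh2 against Ezh2-Y726D (limma adjusted p = 0.000653), beside -1.86 ± 0.25 in Ezh2-Y726D against GFP (adjusted p = 0.00417). In Ezh2 against Ezh2-Y726D, Fyn and Ptk2b, kinases downstream of protocadherins, had a region higher by 1.55 ± 0.21 (adjusted p = 0.00213) and 1.35 ± 0.20 (adjusted p = 0.00286), and another Fyn region differed by -0.89 ± 0.22 (adjusted p = 0.0265). Ret, a receptor kinase that binds protocadherins, was higher by 1.51 ± 0.27 (adjusted p = 0.00703). In Ezh2-Y726D against GFP, Rac1 and Cyfip2, which act on the actin-regulating WAVE complex, differed by -1.05 ± 0.21 (adjusted p = 0.0171) and -0.92 ± 0.21 (adjusted p = 0.0268). Ptk2b moved both ways there, by -0.95 ± 0.24 (adjusted p = 0.0384) and 0.65 ± 0.17 (adjusted p = 0.0420) at different regions. Both regions lower in Ezh2 against GFP were at Fyn, by -0.90 ± 0.20 (adjusted p = 0.0340) and -1.21 ± 0.29 (adjusted p = 0.0479).

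Delta protocadherins, relatives of the family that lie outside the clusters, served as a second reference. All 10 genes had peaks in every list, and 48 of their 136 regions were tested. By limma, 0 were called in either direction in both comparisons with GFP. An unadjusted p under 0.05 was reached by 5 higher and 0 lower with Ezh2 (all regions 9.93% and 10.1%). With Ezh2-Y726D it was reached by 6 and 6 (all regions 12% and 12.4%). In Ezh2 against Ezh2-Y726D 2 were higher and 0 lower, a share of 4.17% that is below the 7.0% of all regions. They lay at Pcdh9 with 0.98 ± 0.22 (adjusted p = 0.0155) and at Pcdh7 with 0.80 ± 0.22 (adjusted p = 0.0402), and at an unadjusted p under 0.05, 12 were higher and 1 lower (all regions 14.9% and 14.5%). Their median differences were 0.08, -0.19 and 0.15 in the 3 comparisons, beside 0.06, -0.17 and 0.06 in the clusters. In the same order, medians were 0.08, -0.11 and 0.21 for RGC markers (49 regions), 0.14, -0.14 and 0.27 for rod markers (44 regions), 0.14, -0.10 and 0.26 for Müller glia markers (45 regions) and 0.13, -0.05 and 0.11 for amacrine markers (98 regions). They went the other way for T cell markers, at -0.21, 0.06 and -0.20 (33 regions), and for microglia and macrophage markers, at -0.07, 0.09 and -0.15 (10 regions). These were 33 of 157 and 10 of 66 regions, as only regions with a peak in all 8 lists were tested. Immune regions without a peak in an Ezh2-Y726D list were therefore left out. By presence, both lists had their fewest regions with Ezh2-Y726D (52 and 53 for T cells, 16 and 18 for microglia and macrophages). Of the T cell regions tested, 9 (27.3%) were called lower and 1 higher in the last comparison, against 6.96% and 7.0% of all regions. The medians over all 34 protocadherin regions thus had the signs of the retinal lists, as did those over all 69493 regions (0.01, -0.01 and 0.02). The beta cluster alone did not in the last comparison, with a median of -0.21. The part of cell makeup was not tested.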

How the data were processed

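The authors deposited 1 list of ATAC-Seq peaks per sample in the narrowPeak layout, called in each sample separately. Positions are in GRCm38, counted from 1. Per the labels, the submitters' processing notes name cutadapt, Bowtie2, SAMtools, Picard, MACS2 and deepTools, and tags in the deposited peak names give a mapping quality of 10, sorting and removal of duplicates. Versions and thresholds are not given in the sources used here, and the lowest −log10 q of a list was 1.31 to 1.38. The deposited fold is the ratio of summit pileup to local background. The deposited −log10 p-value and q-value are those of the peak caller. The deposited score was not used as a result.

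Merging, ranking and figures used Python 3.11.15 with pandas 2.3.3, numpy 2.4.6, scipy 1.17.1 and matplotlib 3.10.9. Gene positions came from RefSeq (GRCm38.p6), and all 8 samples entered 1 fit with limma 3.58.1 (R 4.3.3, lmFit and eBayes, no block) with Benjamini-Hochberg adjustment over all regions tested and a threshold of 0.05. Groups were taken from the sample titles. The steps were tested on simulated data. Alternatives were ranking by −log10 p, regions in at least 5 lists, lists cut to 112939 peaks, centred log2 fold, a −log10 q of at least 5, cover of at least 0.5 of a region, limits of 0 or 3 kb, only the groups compared, a replicate block and leaving out each replicate. Values in every sample are given for regions called, gained or lost, the 3 of highest mean percentile and the C-type segments. At most 6 called genes per other list are named, with Nipbl and Pds5a added. Members and lists were chosen with earlier results of these data known. Lists of other genes came from textbook knowledge. Sequences of the array are not shown here.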

Additional observations from a re-analysis of the deposited data

How the results depend on the processing

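The protocadherin calls were fragile. Ezh2 against GFP gave 2 higher regions, but 0 when ranked by −log10 p or with only the 2 groups compared, and 1 with regions in at least 5 lists, lists of equal length or centred log2 fold. Ezh2-Y726D against GFP gave 1 lower region, but 2 when ranked by −log10 p, with regions in at least 5 lists or with centred log2 fold, and 0 with only the 2 groups compared. The 44 regions with a peak in fewer than 8 lists were in no test unless present in 5. Leaving out 1 replicate at a time moved the regions called higher to 0 to 1 in Ezh2 against GFP, 0 to 1 in Ezh2-Y726D against GFP and 0 to 5 in Ezh2 against Ezh2-Y726D, and those called lower in Ezh2-Y726D against GFP to 0 to 1. Without 1 Ezh2-Y726D replicate, the other is assumed to vary like the other groups. For Ezh2 against GFP such a fit is the same test as with only the 2 groups compared. Regions gained and lost then numbered 0 to 2 and 0 to 3, 1 to 4 and 1 to 4, and 2 to 7 and 0 to 3 in the 3 comparisons in the same order. No region changed sign under any alternative in the comparison in which it was called.

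Samples with the same replicate number resembled each other weakly at most, and whether they were paired is not settled. Ezh2-Y726D replicates 1 and 2 of the titles carry the numbers 2 and 3 in their peak names. Whether an Ezh2-Y726D library with the number 1 exists was not examined. Deviations of same-numbered samples correlated at -0.0151 to 0.0478 over 7 pairs with the numbers of the titles and at 0.00180 to 0.0478 with those of the peak names, none over 0.1, and 3 and 6 of the 8 samples correlated best with their own number. With the number of the titles as a replicate block, 0 regions were higher in Ezh2 against GFP, 0 were lower in Ezh2-Y726D against GFP and 3 were higher in Ezh2 against Ezh2-Y726D. With the block by peak names these were 1, 0 and 1.

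For Ezh2-Y726D against GFP, 0 regions were gained in the gene body only (0 kb), and lost regions numbered 3 with lists of equal length, 2 with a −log10 q of at least 5 and 4 under a cover of at least 0.5 of the region. For Ezh2 against Ezh2-Y726D, gained regions numbered 4 with equal length and 5 with that cover, and lost regions 1 with equal length and 2 with the stricter q. Differences of group means in regions with a peak moved, for Ezh2-Y726D against GFP, to -2.17 in alpha and -0.33 in beta with equal length, -2.33 in alpha with the cover rule and -0.50 in beta with the stricter q. For Ezh2 against Ezh2-Y726D they moved to 4.0 in alpha and 4.67 in gamma with the cover rule, and to 0 and 1.17 in gamma with equal length and the stricter q. For Ezh2 against GFP, gamma moved to -2.67 with equal length. Member genes with a peak in their own segment moved to -5.67 for Ezh2-Y726D against GFP with the stricter q. The difference in median percentile against GFP moved, with equal length, to 4.08 with Ezh2 and -1.99 with Ezh2-Y726D. With the stricter q it became -2.11 for Ezh2-Y726D against GFP and 5.12 for Ezh2 against Ezh2-Y726D, and by −log10 p -1.19 and 4.44. The cause of these moves was not tested.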

Other observations

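Downstream of the gamma cluster, the gene Diaph1, which encodes an actin-nucleating formin, held 16 merged regions outside the 1 kb limit. Enhancers of the gamma cluster are known to lie in this direction, and whether any of these regions is one was not tested. Of the 8 with a peak in all lists, 2 neighbouring regions differed between Ezh2 and Ezh2-Y726D, in opposite directions. Over all regions, 7.0% were called higher and 6.96% lower in that comparison. The region from 37925623 to 37926449 had a percentile of 78.3, 83.1 and 78.6 with GFP, 77.2, 84.6 and 86.6 with Ezh2 and 45.5 and 30.2 with Ezh2-Y726D. Its difference was -1.38 in Ezh2-Y726D against GFP (limma adjusted p = 0.00648) and 1.5 in Ezh2 against Ezh2-Y726D (adjusted p = 0.00241). The region from 37927730 to 37928222 had 22.6, 18.4 and 31.6 with GFP, 8.75, 6.79 and 7.80 with Ezh2 and 33.4 and 49.8 with Ezh2-Y726D, with -1.12 in Ezh2 against Ezh2-Y726D (adjusted p = 0.00451). Its differences to GFP, 0.49 with Ezh2-Y726D (adjusted p = 0.138) and -0.64 with Ezh2 (adjusted p = 0.0593), did not pass. Another, from 37891987 to 37892990, had a peak in all 3 Ezh2 samples, at a percentile of 82.8, 76.4 and 75.9, in GFP replicates 1 and 3 at 8.60 and 48, and in neither Ezh2-Y726D sample. These regions were picked after their values were seen.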
